A study of Mus musculus with 24 samples.

Results

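The transcriptional response of wild-type RAW264.7 cells to lipopolysaccharide (LPS) was examined by RNA-seq. RAW264.7 is a macrophage-like line derived from a male mouse. The members were 6 of the 24 libraries of the series, namely 3 libraries of wild-type RAW264.7 cells that received PBS and 3 that received LPS at 100 ng/mL for 4 h before harvest. They were chosen by sample title and library name, because the genotype tag contradicts both and marks the wild-type LPS libraries as *Olfml3* knockout. Used for comparison were 6 RAW264.7 libraries labelled *Olfml3* knockout and 6 libraries of wild-type bone marrow-derived macrophages (BMDMs), each with 3 PBS and 3 LPS libraries under the same treatment. The knockout line was made as single-cell clones after lentiviral delivery of guide RNAs, BMDMs were grown from the marrow of young male C57BL/6 mice, and no source used here says which RAW264.7 line served as the wild type. The study calls the libraries of a group biological replicates, but no source used here says that they came from separate cultures, so p-values measure the spread between these libraries, which may be technical.

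LPS is a glycolipid that Gram-negative bacteria carry on their surface. It is handed by CD14 to the receptor TLR4 and its partner MD-2. The adaptor MyD88 then leads to NF-kappaB and the MAP kinases, which switch on cytokine and chemokine genes, whereas the adaptor TRIF leads to IRF3 and to interferon beta. Secreted interferon beta acts back on the cells through STAT proteins and IRF9, so that interferon-stimulated genes follow. Macrophages are known to answer LPS with secreted mediators, with changed metabolism and with slower division.

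The libraries of the wild-type PBS group held 13145037 to 16142555 counted reads, and those of the LPS group 12801180 to 14712413. Replicates of a group differed by slightly more than sampling noise (chi-square per degree of freedom 2.06 to 2.83), and each library correlated with the others of its group at about 0.996 against about 0.925 with the other treatment (correlations across genes, which are not independent replicates). Mitochondrial genes took 3.08% to 3.14% of the reads with PBS and 2.78% to 2.92% with LPS. Of 12 macrophage markers, *Lyz2*, *Cd68*, *Cd14* and *Csf1r* were abundant, whereas *Mertk* was listed at 0. The summed level of the macrophage list was 4169 to 4233 FPKM (fragments divided by the exonic length of the gene in kilobases and by library total) with PBS and 4647 to 4782 with LPS. Summed B cell, neutrophil, fibroblast, epithelial and endothelial lists reached at most 0.73 FPKM in any library. The T cell list went from between 0.77 and 1.30 FPKM with PBS to between 2.39 and 2.72 with LPS through *Lck*, a Src-family kinase, while 5 of its 7 markers, *Cd3e*, *Cd3g*, *Cd4*, *Cd8a* and *Trac*, were listed at 0.

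Counts were scaled by the median ratio of genes and tested with edgeR's quasi-likelihood method, and a gene was taken as changed where the Benjamini-Hochberg adjusted p was under 0.05 and the fold change at least 1.5. Where a gene is said not to pass, 1 of both thresholds was missed, often the fold, since 8831 genes passed the adjusted p alone. Of 12651 genes tested, 4327 (34.2%) changed, of which 2042 (16.1% of the genes tested) rose and 2285 (18.1%) fell. The numbers of rises and falls were alike, but their sizes were not. At least 2-fold, 1229 genes rose and 1214 fell, at least 8-fold 396 rose and 83 fell, and at least 32-fold 174 rose and 4 fell. The 3 LPS libraries did not overlap the 3 PBS libraries for 4219 of the 4327 genes, and for 8964 (70.9%) of all genes tested. The 396 genes that rose at least 8-fold had a median level of 0.235 FPKM with PBS, and 264 of them (66.7%) lay below 1 FPKM, against 15.2% of all genes tested. This difference is in part fixed by the choice, since a large rise selects for a low start. The 2042 genes that rose held 9.99% to 10.1% of all reads with PBS and 25.5% to 25.6% with LPS. The balance of rises and falls moved with the scaling. With library totals in place of the median ratio, the median of all genes moved from 0.01 to -0.22 on the log2 scale, and 1443 rises stood against 3413 falls (29.7% higher in place of 47.2%). FPKM values are as deposited, scaled by library totals, and those with LPS are shifted by -0.23 on the log2 scale relative to the scaling used for the tests, so a ratio of FPKM is smaller than the fold change beside it. Values given as rising or falling by a number are log2 fold changes. The SE beside them is the absolute log2 fold change divided by the square root of the F statistic of the test. It is thus an approximation and not a separately fitted standard error, and it is unreliable for small changes and low counts. Read counts of bulk RNA cannot tell fewer cells with a transcript from less of it per cell.

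**Figure D1:**
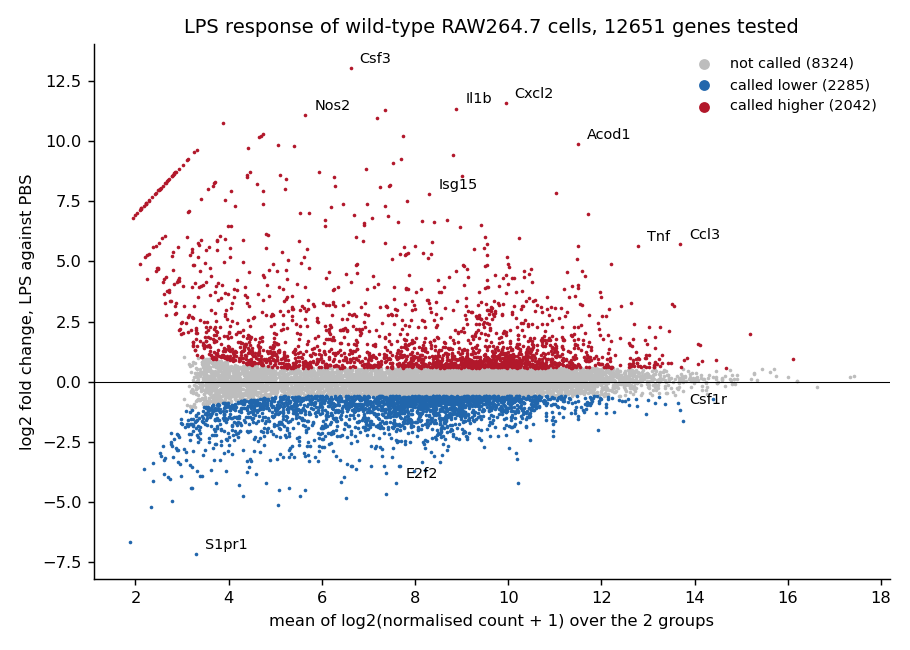
Log2 fold change of LPS against PBS (vertical axis) and mean log2 level of each of the 12651 genes tested (horizontal axis), with 2042 genes called higher in red, 2285 called lower in blue and the others in grey. The rises reach far beyond the falls, and the straight upper left edge is made of genes without a read in the 3 PBS libraries.

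*Olfml3*, the gene that the study targeted, had 16, 15 and 12 raw counts with PBS and 10, 12 and 26 with LPS (log2 fold change 0.41, SE 0.39, edgeR adjusted p = 0.358). The groups overlapped, and the highest mean was 0.183 FPKM. The line labelled knockout had more *Olfml3* counts than wild type: 271 over its 3 PBS libraries (66 to 105 each) and 4264 over its 3 LPS libraries (1357 to 1524), against 43 and 48 in wild type. The study characterised mutations at each allele of its knockout clones by Sanger sequencing. Counts per gene do not show whether a transcript is mutated, so they do not settle the genotype. Those libraries are therefore called the RAW264.7 libraries labelled knockout. In BMDMs the knockout had fewer counts, 6 and 1 against 243 and 102 in wild type.

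*Acod1* encodes the mitochondrial enzyme IRG1, which makes itaconate from cis-aconitate. It had 66.0, 97.3 and 118 normalised counts with PBS and 88797, 87576 and 87460.2 with LPS (log2 fold change 9.87, SE 0.047, edgeR adjusted p = 5.49e-89), a 935-fold rise from 2.76 to 2199.9 FPKM. The PBS libraries differed among themselves by less than 2-fold and the LPS libraries hardly at all. *Aifm1*, which encodes a mitochondrial import and redox protein, had 1723, 1694 and 1700.3 normalised counts with PBS and 1566, 1523 and 1456 with LPS. Each LPS library lay below each PBS library, but the difference (log2 fold change -0.17, SE 0.043, edgeR adjusted p = 0.000317) was too small to count as changed. *Tnf*, the early inflammatory cytokine, went from 1046, 973 and 985 to 50893, 48235 and 49836 normalised counts (log2 fold change 5.63, SE 0.032, edgeR adjusted p = 3.86e-84), a 49.6-fold rise from a level that was already 47.2 FPKM. *Ccl2*, the chemokine MCP-1 that draws monocytes, went from 7.77, 19.3 and 9.83 to 2039, 1942 and 2051 (log2 fold change 7.29, SE 0.11, edgeR adjusted p = 5.83e-59). *Il1b*, a cytokine stored as an inactive precursor, went from 1.94, 10.4 and 13.8 to 22594, 23698 and 22957 (log2 fold change 11.34, SE 0.069, edgeR adjusted p = 2.82e-82). In none of these 3 genes did the groups come near each other.

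*Il6* and *Nos2* were almost without reads in resting cells, so that their size of change is known only within wide limits. For *Il6*, a cytokine that drives the acute-phase response, 3 raw counts over the PBS libraries stood against 2527 over the LPS libraries, a ratio of 1007 with a 95% counting interval of 344 to 4887. For *Nos2*, the inducible nitric oxide synthase, 2 counts stood against 4342, a ratio of 2596 with a 95% counting interval of 718 to 21440.1. Levels with LPS were still moderate, 24.8 ± 0.570 FPKM (SD, n = 3) for *Il6* and 23.3 ± 0.519 for *Nos2*.

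**Figure D2:**
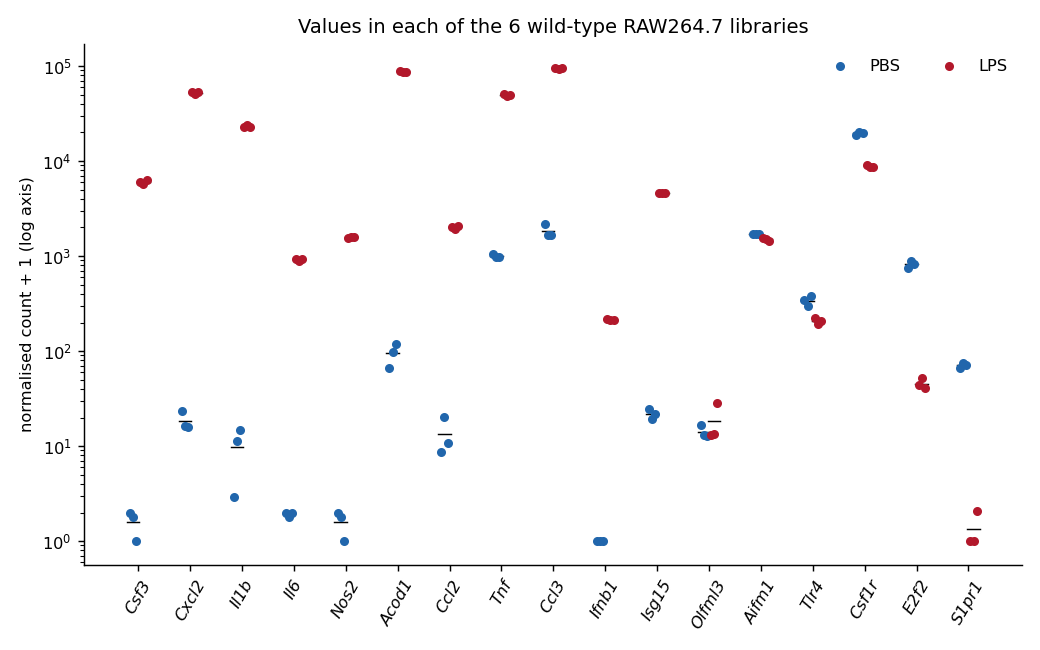
Normalised count plus 1 (log axis) of 17 genes in each of the 3 PBS libraries (blue) and 3 LPS libraries (red) of wild-type RAW264.7 cells, with a short line at each mean. The groups lie far apart from *Csf3* to *Ccl2*, overlap for *Olfml3* and differ slightly for *Aifm1*.

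Ranked by fitted fold change, and limited to genes whose libraries did not overlap and that reached 1 FPKM in the mean of a group, the first 10 were *Csf3*, *Cxcl2*, *Il1b*, *Il1a*, *Nos2*, *Lif*, *Ifnb1*, *Edn1*, *Ccl22* and *Cish*. *Csf3* encodes G-CSF, the growth factor of neutrophils, and had 2 counts over the PBS libraries and 16680 over the LPS libraries, a ratio of 9971 with a 95% counting interval of 2759.9 to 82344. *Cxcl2*, a neutrophil chemoattractant, had 22.3, 15.3 and 14.8 normalised counts with PBS and 53976, 51044 and 52941 with LPS (log2 fold change 11.56, SE 0.053, edgeR adjusted p = 1.64e-89). The LPS libraries of *Cxcl2* were close together, and no PBS library came near them. *Il1a*, which encodes the other form of interleukin 1, went from 0, 3.22 and 4.92 to 6924, 7211 and 7262 normalised counts (log2 fold change 11.29, SE 0.094, edgeR adjusted p = 3.95e-74). *Lif*, a cytokine of the family of *Il6*, went from 3.88, 1.61 and 2.95 to 5844, 5627 and 5341 (log2 fold change 10.94, SE 0.097, edgeR adjusted p = 1.28e-72). *Edn1* encodes the vasoconstrictor endothelin 1 and had 1 count with PBS and 1460 with LPS, a ratio of 1746 with a 95% counting interval of 313 to 68994. *Cish*, a cytokine-inducible inhibitor of STAT signalling, had 1 and 1384 counts, a ratio of 1655 with a 95% counting interval of 297 to 65405. No read of *Ifnb1*, interferon beta, was counted with PBS, and 215, 212 and 211 normalised counts with LPS set it at least 234-fold higher, with the floor taken as 3 counts over the group.

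Among the genes that rose, the highest mean levels with LPS were those of *Ccl3*, *Ccl4*, *Spp1*, *Actb*, *Acod1*, *Tnf*, *Cxcl2*, *Ifitm3*, *Cd14* and *Marcksl1*. The chemokine *Ccl3* (MIP-1alpha) went from 184 ± 29.4 to 8133 ± 155 FPKM (SD, n = 3). Its relative *Ccl4* (MIP-1beta) went from 35.0 ± 6.16 to 3669 ± 61.0 FPKM. These 2 chemokines, *Acod1*, *Tnf* and *Cxcl2* started below 200 FPKM and ended above 1600. *Spp1*, which encodes the secreted phosphoprotein osteopontin, had 20550.2, 18107 and 17096 normalised counts with PBS and 75778, 73207 and 74286 with LPS (log2 fold change 2.00, SE 0.030, edgeR adjusted p = 1.18e-58). *Actb*, cytoplasmic beta-actin and often used as a reference gene, went from 51726, 50258 and 52365 to 96759.8, 99614 and 99242 normalised counts (log2 fold change 0.94, SE 0.021, edgeR adjusted p = 4.72e-48), so that it was not constant here. *Marcksl1*, a cytoskeletal substrate of protein kinase C, went from 41.5 to 1060.4 FPKM (log2 fold change 4.91).

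The largest falls were smaller and touched genes of modest level. Under the same limits, the 10 largest were those of *S1pr1*, *Cbfa2t3*, *C130050O18Rik*, *St6gal1*, *Myadml2*, *Ranbp3l*, *Tox2*, *Lifr*, *Cbx2* and *Hpgd*. *S1pr1* encodes a receptor for sphingosine 1-phosphate and had 65.1, 73.9 and 70.8 normalised counts with PBS and 0, 0 and 1.06 with LPS, which is 231 raw counts against 1 (a PBS to LPS ratio of 193 with a 95% counting interval of 34.3 to 7664). *Cbfa2t3*, a transcriptional corepressor of blood cells, went from 193, 149.5 and 206 to 2.39, 3.09 and 9.51 normalised counts (log2 fold change -5.13, SE 0.27, edgeR adjusted p = 5.46e-27). *St6gal1*, which adds sialic acid to glycans, went from 214, 235 and 230.1 to 9.57, 3.09 and 12.7 (log2 fold change -4.74, SE 0.22, edgeR adjusted p = 1.23e-29). In each of these genes the PBS libraries were close together and the LPS libraries were near 0. *Lifr*, the receptor for the product of *Lif*, fell by 4.48 on the log2 scale, opposite to its ligand, from 1.59 to 0.0600 FPKM. *Hpgd*, the enzyme that inactivates prostaglandins, fell by 4.41 from 1.53 to 0.0567 FPKM, while *Ptgs2*, which makes their precursor, rose by 7.85. *Tox2*, *Cbx2* and *Ranbp3l* fell by 4.50, 4.41 and 4.68.

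Of 25 genes of the TLR4 complex and its adaptors, 24 were tested, 13 rose and 2 fell (62.5% changed against 34.2% of all genes, median log2 fold change 0.70, against 0.01 over all genes tested). *Tlr4*, the receptor chain, had 342, 297 and 379 normalised counts with PBS and 221, 192 and 204 with LPS (log2 fold change -0.72, SE 0.10, edgeR adjusted p = 4.26e-09). The highest LPS library lay below the lowest PBS library. *Cd14*, the co-receptor, rose from 10263, 10076 and 9623 to 29479, 30253 and 30184 normalised counts (log2 fold change 1.59, SE 0.026, edgeR adjusted p = 7.04e-57), and it was by far the most abundant of the complex at 1135 FPKM against 2.43 for *Tlr4*. *Ly96*, which encodes MD-2, did not pass (0.18). Of the adaptors, *Myd88* rose by 1.16 and *Ticam1*, which encodes TRIF, by 1.5, whereas *Ticam2*, which couples TRIF to the receptor, fell by 0.85. *Ikbke*, a kinase of IRF3, rose by 5.55 from 0.890 to 35.2 FPKM. *Peli1*, a ubiquitin ligase of the pathway, rose by 4.15 and *Irak2*, a kinase of the MyD88 complex, by 2.66. *Irak3*, a kinase-dead inhibitor of that complex, rose by 1.63. *Irak1*, *Irak4*, *Traf6* and *Map3k7* did not pass, with values from -0.17 to 0.36.

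NF-kappaB is held in the cytoplasm by IkappaB proteins until these are degraded, and its own inhibitors are among its targets. Of 18 subunits, inhibitors and kinases, 14 rose and none fell (median 2.38). *Nfkbia*, the main IkappaB, had 1028, 929 and 926 normalised counts with PBS and 8927, 9107 and 9289 with LPS (log2 fold change 3.25, SE 0.037, edgeR adjusted p = 2.50e-66). *Tnfaip3* encodes the ubiquitin-editing inhibitor A20 and went from 124, 156 and 132 to 4072, 3949.7 and 4046 (log2 fold change 4.86, SE 0.056, edgeR adjusted p = 1.23e-65). *Nfkbiz*, a nuclear IkappaB that is needed for secondary response genes, rose most, by 5.24 from 1.85 to 59.9 FPKM. In all 3 inhibitor genes the lowest LPS library exceeded the highest PBS library several times over. The precursor subunits rose together, *Nfkb1* by 3.13 and *Nfkb2* by 2.91, and so did *Rel* (2.39) and *Relb* (2.37). *Rela*, the transactivating subunit that is present at rest, had 712, 727 and 765 normalised counts with PBS and 751, 666 and 759 with LPS and a log2 fold change of -0.019 (SE 0.064). The kinase genes *Ikbkb* and *Ikbkg* did not pass (0.49 and 0.032), and *Chuk* rose by 0.59, just past the threshold of 1.5-fold, which it missed without PBS replicate 3 (0.55), without LPS replicate 1 (0.58) and with library totals (0.36).

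Stretches of promoter that hold the kappaB consensus, the motif bound by NF-kappaB, are shown for members that rose at least 8-fold, so that the motif can be seen beside the size of the rise. They were read from the RefSeq promoters of GRCm38.p6, which run from 250 bases before to 50 bases after a start site, and each is written 5′ to 3′ on the strand of its gene with the match in capitals and its first base counted from the start site. Both strands were searched.
Cxcl2 (chr5:90903792-90903821, plus strand, position -97): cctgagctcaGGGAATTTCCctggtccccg
Il6 (chr5:30013060-30013089, plus strand, position -44): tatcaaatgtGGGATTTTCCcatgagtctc
Ifnb1 (chr4:88522891-88522920, minus strand, position -116): aactgaaagtGGGAAATTCCtctgaggcag
Nfkbia (chr12:55492657-55492686, minus strand, position -29): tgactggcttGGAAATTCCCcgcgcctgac
Tnip1 (chr11:54962979-54963008, minus strand, position -58): ctccatcatgGGGGAATTCCcctcctgcct
Csf1 (chr3:107760604-107760633, minus strand, position -154): gggccttgagGGAAAGTCCCtaggggccag
The log2 fold changes of these genes were 11.56 for *Cxcl2*, 3.25 for *Nfkbia*, 3.09 for *Tnip1* and 6.99 for *Csf1*, with *Il6* and *Ifnb1* as given above. Of all 32851 promoters 8.46% hold such a match, so a match is a description of these letters. Shares among changed and unchanged genes were not compared, because only 9074 of 12535 tested symbols (72.4%) have a promoter in the table and the comparison would be void.

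Immediate-early genes are known to respond before new protein is made, many of them transiently. Of 22 genes, measured at 4 h, 16 rose and 1 fell (median 2.14), or 3 fell with library totals. *Myc*, a driver of growth, had 16.5, 23.3 and 17.7 normalised counts with PBS and 2021, 2030.0 and 1858 with LPS (log2 fold change 6.65, SE 0.099, edgeR adjusted p = 5.63e-59). *Atf3*, a stress-induced repressor, rose by 3.15 from 15.0 to 113 FPKM, and *Junb*, a partner of AP-1, by 2.34 from 45.2 to 194 FPKM. *Egr1*, an early zinc finger factor, rose by 4.21, *Egr2* by 3.43 and *Egr3* by 1.94. The classical AP-1 pair behaved otherwise. *Fos* had 303, 289 and 308 normalised counts with PBS and 457, 428 and 413 with LPS (log2 fold change 0.53, SE 0.085, edgeR adjusted p = 1.14e-07) and *Jun* 664, 769 and 808 with PBS and 513, 531 and 561 with LPS (log2 fold change -0.48, SE 0.070, edgeR adjusted p = 8.64e-09), so that both stayed under 1.5-fold, although *Jun* passed with library totals (-0.72). *Fosb*, a near relative of *Fos*, fell by 1.46 at 0.227 FPKM with PBS. *Batf*, an AP-1 factor of immune cells, had no read with PBS and was at least 42.1-fold higher with LPS.

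Of 24 feedback regulators, 22 were tested, 18 rose and 2 fell (median 2.80). *Socs3*, an inhibitor of cytokine receptor signalling, went from 282, 249 and 259.6 to 6156, 6267 and 6450.3 normalised counts (log2 fold change 4.58, SE 0.046, edgeR adjusted p = 2.02e-69), and its relative *Socs1* rose by 4.61. *Il1rn*, the antagonist of the interleukin 1 receptor, rose by 4.33 from 3.36 to 57.2 FPKM. Proteins that destroy cytokine mRNAs rose as well, *Zfp36* (tristetraprolin) by 3.09 and *Zc3h12a* (Regnase-1) by 3.74. The relatives of *Zfp36* went the other way: *Zfp36l1* fell by 1.19 and *Zfp36l2* fell by 1.90, with 2085, 2046 and 2141 normalised counts with PBS and 537, 627 and 516 with LPS. Of the MAP kinase phosphatases on this list, all but *Dusp6* rose. *Dusp5* rose by 5.30 and *Dusp1* by 1.53, whereas *Dusp6*, which acts on ERK, had 336, 355 and 326 normalised counts with PBS and 362, 341 and 319 with LPS and a log2 fold change of 0.00 (SE 0.088). *Rgs16*, which turns off G-protein signalling, rose by 6.73 from 1.29 to 118 FPKM.

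Of 28 cytokines and growth factors, 24 passed the filter on low counts, 21 rose and 1 fell, with a median log2 fold change of 5.41, or 5.07 where genes without a PBS read are set to their bound. A gene with few PBS reads passes that filter only where it is higher with LPS, so these values are in part fixed by it. *Il27* encodes 1 chain of interleukin 27 and had 5.83, 8.04 and 9.83 normalised counts with PBS and 4756, 4898 and 4929 with LPS (log2 fold change 9.24, SE 0.084, edgeR adjusted p = 6.42e-72). Its partner chain *Ebi3* started higher and rose by 2.56 from 9.26 to 46.5 FPKM. *Csf2*, which encodes GM-CSF, had 2 counts with PBS and 1838 with LPS, a ratio of 1099 with a 95% counting interval of 304 to 9079.7. *Csf1*, the growth factor of macrophages, rose by 6.99 from 0.0600 to 6.91 FPKM. *Il10*, the anti-inflammatory cytokine, rose by 5.18 and reached only 2.42 FPKM. *Il23a*, the specific chain of interleukin 23, rose by 4.87 to 1.14 FPKM. *Pdgfb*, a growth factor of mesenchymal cells, rose by 3.19 from 18.7 to 145 FPKM, and *Tgfb1* by 1.35 from 43.7 to 94.5 FPKM. *Igf1* was the gene that fell (-0.61), and it missed the fold threshold without LPS replicate 1 (-0.58). *Vegfa* (0.24) and *Tnfsf9* (0.36) did not pass. The chains of interleukin 12 were hardly transcribed: *Il12a* had no read in any of the 6 libraries and *Il12b* none with PBS and 4, 3 and 5 raw counts with LPS.

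All 16 tested chemokines changed, of 24 on the list. The filter on low counts keeps a gene with few PBS reads only where it is higher with LPS. This share and the median are therefore in part fixed by the filter. 15 rose and 1 fell, with a median of 6.83 (6.41 with the gene that lacks a PBS read at its bound). *Ccl5* (RANTES), which attracts T cells, had 19.4, 14.5 and 16.7 normalised counts with PBS and 11487, 11378 and 11414 with LPS (log2 fold change 9.41, SE 0.063, edgeR adjusted p = 8.64e-80). *Cxcl10*, an interferon-induced attractant of T cells, had 18.4, 29.7 and 29.5 with PBS and 9565, 9738 and 9879 with LPS (log2 fold change 8.53, SE 0.063, edgeR adjusted p = 2.72e-77). *Ccl22*, a ligand of CCR4, had 0.971, 9.65 and 5.90 with PBS and 6765, 7074 and 7002 with LPS (log2 fold change 10.20, SE 0.087, edgeR adjusted p = 2.01e-73). For these 3 genes every PBS library was close to 0 and the LPS libraries differed little among themselves. *Ccl9* was already high at rest and rose by 3.14 from 103 to 771 FPKM, and *Cxcl16*, which is also a scavenger receptor, by 2.17. *Ccl7*, a relative of *Ccl2*, had 1 count with PBS and 331 with LPS, a ratio of 396 with a 95% counting interval of 70.5 to 15678. The gene that fell was *Cxcl14* (log2 fold change -0.65, SE 0.21, edgeR adjusted p = 0.00414), which did not pass when all 12 RAW264.7 libraries were fitted, with limma on rescaled FPKM, or without PBS replicate 1 (-0.56), PBS replicate 2 (-0.53) or LPS replicate 3 (-0.46). Several chemokines of the list had at most a few reads with LPS and were not tested, among them *Cxcl1* with 6, 2 and 4 raw counts and *Cxcl9* with 0, 4 and 0.

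Receptors for these signals were divided. Of 31, 25 were tested, 13 rose and 5 fell (median 0.66). *C5ar1*, the receptor of the complement fragment C5a, went from 48.5, 49.8 and 31.5 to 2499, 2491 and 2396 normalised counts (log2 fold change 5.81, SE 0.081, edgeR adjusted p = 8.83e-61). *Ccrl2*, a non-signalling receptor of chemerin, rose by 8.11 from 0.117 to 30.6 FPKM. *Fpr2*, a receptor of formyl peptides, had no PBS read and was at least 54.8-fold higher. *Csf1r*, which receives the product of *Csf1*, had 19017, 20080.3 and 19955 normalised counts with PBS and 9079.6, 8678 and 8698 with LPS (log2 fold change -1.16, SE 0.027, edgeR adjusted p = 1.66e-47), so that every LPS library lay far below every PBS library. *Cx3cr1*, the fractalkine receptor, fell by 0.70 and both chains of the TGF-beta receptor fell, *Tgfbr1* by 1.36 and *Tgfbr2* by 1.18. The receptors of tumour necrosis factor differed in size: *Tnfrsf1b* rose by 4.80 from 2.77 to 65.8 FPKM and *Tnfrsf1a* by 0.66 (0.43 and under the threshold with library totals). Neither chain of the type I interferon receptor passed (*Ifnar1* 0.015, *Ifnar2* -0.43), although *Ifnar2* did with library totals (-0.66).

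Each of the 46 type I interferon-stimulated genes on the list was tested and each rose, with a median log2 fold change of 5.43 (5.33 with the gene lacking PBS reads at its bound) and a range from 1.74 to 10.16. In all 46 the LPS libraries lay above the PBS libraries, where 70.9% of all genes tested had no overlap in either direction. *Isg15*, a ubiquitin-like modifier, had 23.3, 18.5 and 20.7 normalised counts with PBS and 4629, 4582 and 4585 with LPS (log2 fold change 7.79, SE 0.073, edgeR adjusted p = 3.81e-71). *Ifit1*, which binds foreign 5′ RNA ends, went from 1.94, 18.5 and 7.87 to 2927, 3082 and 2874 (log2 fold change 8.19, SE 0.11, edgeR adjusted p = 2.95e-62). *Rsad2* encodes the antiviral enzyme viperin and rose by 9.09 from 0.133 to 61.1 FPKM. The oligoadenylate synthase genes, whose products activate RNase L, began at different levels. *Oasl1*, a relative of them, rose by 5.64 from 12.1 to 510.1 FPKM and *Oas3* by 3.49 from 4.54 to 43.3 FPKM. *Oas1a* and *Oas1g*, near-identical copies between which reads may be split, rose by 2.45 and 2.83, and the same caution holds for *Ifit3* (7.37) and *Ifit3b*. Guanylate-binding proteins, GTPases that attack vacuoles of pathogens, rose strongly. *Gbp5* rose by 8.70 from 0.0300 to 10.5 FPKM, and *Gbp2* had 1 count with PBS and 1346 with LPS, a ratio of 1609 with a 95% counting interval of 288 to 63610.3. The sensors of viral RNA *Ddx58* (RIG-I) and *Ifih1* (MDA5) rose by 5.71 and 6.50. The factors that carry the interferon signal rose by less than the median of the list, *Stat2* by 3.13 and *Irf9* by 2.66, and the amplifier *Irf7* by 4.33 from 5.07 to 86.6 FPKM. *Bst2* (tetherin) and *Ifitm3*, an inhibitor of viral entry, showed the smallest rises and were already at 73.5 and 484 FPKM with PBS, and rose by 2.09 and 1.74.

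Stretches with the core of the interferon-stimulated response element, GAAANNGAAA on either strand, are given for members of the list from the same RefSeq promoters, to show the motif as it lies before genes of large and of smaller rise. The capitals mark 1 match per stretch, and a match on the other strand reads in reverse complement. Further matches are not marked, such as one in the stretch of *Isg15* that overlaps the capitals and runs on after them.
Isg15 (chr4:156200877-156200906, minus strand, position -78): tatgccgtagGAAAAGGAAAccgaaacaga
Ifit1 (chr19:34640775-34640804, plus strand, position -104): caggcttcagTTTCACTTTCcagtctcagt
Rsad2 (chr12:26456553-26456582, minus strand, position -120): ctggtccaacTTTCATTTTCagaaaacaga
Gbp2 (chr3:142620594-142620623, plus strand, position -59): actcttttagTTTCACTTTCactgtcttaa
Oas3 (chr5:120777715-120777744, minus strand, position -75): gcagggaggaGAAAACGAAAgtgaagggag
Stat2 (chr10:128270266-128270295, plus strand, position -222): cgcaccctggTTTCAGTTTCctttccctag
Of all 32851 promoters 3.44% hold the core. The promoter of *Cxcl10* holds matches of both motifs, 1 of the core and 4 of the kappaB consensus with overlapping matches and both strands counted. Its 250 bases before the start site are given with all matches in capitals.
Cxcl10 (chr5:92348890-92349139, minus strand): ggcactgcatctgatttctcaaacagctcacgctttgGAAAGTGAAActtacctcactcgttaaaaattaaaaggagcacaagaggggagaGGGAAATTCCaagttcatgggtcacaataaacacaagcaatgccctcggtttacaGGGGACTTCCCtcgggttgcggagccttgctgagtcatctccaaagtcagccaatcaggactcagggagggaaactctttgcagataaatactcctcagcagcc

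**Figure D3:**
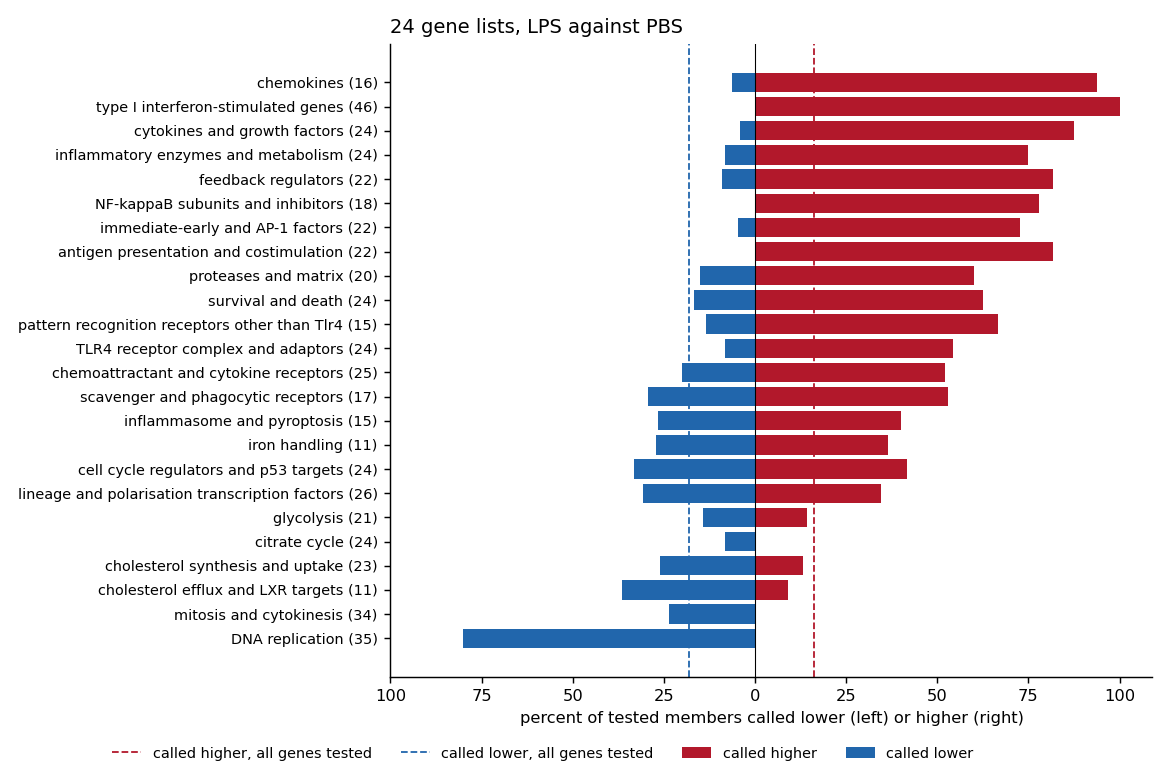
Percent of tested members called lower (blue, to the left) and higher (red, to the right) in each of 24 gene lists, with the number tested in parentheses and the shares over all 12651 genes as dashed lines at 18.1% and 16.1%. Interferon-stimulated genes stand at 100% higher, and DNA replication genes stand at 80% lower with none higher.

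Enzymes and proteins of inflammation rose in their majority. Of 28 genes, 24 were tested, 18 rose and 2 fell (4 with library totals), with a median of 2.86. *Ptgs2*, the inducible cyclooxygenase, had 147, 141 and 121 normalised counts with PBS and 33375, 30771 and 30280 with LPS (log2 fold change 7.85, SE 0.046, edgeR adjusted p = 2.16e-83). Its constitutive form *Ptgs1* had 285, 313 and 288 with PBS and 56.2, 88.7 and 85.6 with LPS (log2 fold change -1.93, SE 0.13, edgeR adjusted p = 1.83e-21). The isoforms thus moved in opposite directions, with no overlap in either gene. *Ptges*, which acts after them to make prostaglandin E, rose by 3.81. *Hdc*, the enzyme that makes histamine, rose by 8.83 from 0.0633 to 24.7 FPKM. *Saa3*, an acute-phase protein, rose by 8.11 from 0.257 to 59.9 FPKM. *Sod2*, the mitochondrial superoxide dismutase, rose by 2.18 and *Cybb*, the catalytic chain of the phagocyte oxidase, by 2.11, whereas its subunit *Ncf1* did not pass (-0.023). *Slc7a11*, the cystine importer, rose by 3.28, but *Gclc*, the enzyme that starts glutathione synthesis, fell by 0.90. *Hmox1*, which encodes heme oxygenase, did not pass (-0.40), but was lower with library totals (-0.63). *Arg2*, the mitochondrial arginase, rose by 3.11, and *Arg1* was too low to be tested.

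Of 21 genes of glycolysis, 3 rose and 3 fell (median 0.04), so that 28.6% changed, near the 34.2% of all genes. *Hk2*, the inducible hexokinase, had 2204, 2134 and 2029.7 normalised counts with PBS and 5164, 5133 and 4779 with LPS (log2 fold change 1.24, SE 0.035, edgeR adjusted p = 6.08e-42), while *Hk1* had 2796, 2800.4 and 2903 with PBS and 1452, 1542 and 1474 with LPS (log2 fold change -0.93, SE 0.039, edgeR adjusted p = 2.97e-32). *Slc2a1*, the glucose transporter GLUT1, rose by 1.21 and *Hif1a*, the factor that drives many glycolytic genes, by 0.62 (0.39 and under the threshold with library totals). The abundant enzymes of the later steps did not pass, among them *Pkm* (-0.22 at 1696 FPKM with PBS) and *Ldha* (0.075 at 935 FPKM). *Gapdh*, usually among the most abundant transcripts, was listed at only 11.9 FPKM, and reads that it shares with its pseudogenes make its value (0.48) uncertain. Of 24 genes of the citrate cycle, 2 fell, 6 with library totals, and none rose (median -0.10). The cytosolic *Idh1* fell by 0.99 from 60.3 to 25.8 FPKM, and *Pcx*, which refills oxaloacetate, by 0.61, which did not hold without PBS replicate 3 (-0.54) or LPS replicate 3 (-0.49). *Sdha*, whose enzyme itaconate is known to inhibit, did not pass (-0.24).

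Sterol genes were mixed. Of 23 tested genes of cholesterol synthesis and uptake, 3 rose (none with library totals) and 6 fell (median -0.20). With 39.1% changed, this list was near the 34.2% of all genes. *Dhcr7*, which acts at the end of the pathway, had 1119, 1207 and 1237 normalised counts with PBS and 245, 239 and 274 with LPS (log2 fold change -2.23, SE 0.071, edgeR adjusted p = 4.22e-39). Of 11 tested genes of efflux and LXR targets, 1 rose and 4 fell (median -0.23), so that 45.5% changed. The transporters were opposed, with *Abca1* rising by 3.25 from 0.130 to 1.08 FPKM and *Abcg1* falling by 1.5 from 13.8 to 4.13 FPKM. *Scd2*, a fatty acid desaturase, fell by 1.61 at 341 FPKM with PBS.

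Cells divide continuously in this line, and genes of DNA synthesis fell. Of 35 genes of DNA replication, 28 fell and none rose (median -1.04). *E2f2*, a transcription factor of S-phase genes, had 757, 887 and 821 normalised counts with PBS and 43.1, 50.5 and 40.1 with LPS (log2 fold change -4.20, SE 0.11, edgeR adjusted p = 4.62e-44). *Tk1*, the thymidine kinase, had 3189, 3217 and 3166 with PBS and 391, 411 and 437 with LPS (log2 fold change -2.95, SE 0.048, edgeR adjusted p = 1.97e-56). *Cdc6*, which loads the replicative helicase, had 834, 932 and 890.0 with PBS and 109, 111 and 132 with LPS (log2 fold change -2.91, SE 0.089, edgeR adjusted p = 2.82e-40). In each, all LPS libraries lay far below the lowest PBS library. *Ccne1* and *Ccne2*, the E cyclins that start S phase, fell by 2.57 and 2.10. The helicase subunits *Mcm2* to *Mcm7* fell by 0.87 (*Mcm3*) to 1.58 (*Mcm2*), and the clamp *Pcna* by 1.03 from 202 to 84.1 FPKM. *Mcm10* (0.016) and *Cdc25a* (-0.027) did not pass. Of 34 genes of mitosis, 8 fell and none rose (median -0.45), a share lower of 23.5% against 18.1% of all genes, but 23 fell with library totals. The lists were not tested against each other. *Nusap1*, a spindle protein, had the lowest value (log2 fold change -0.84, SE 0.045, edgeR adjusted p = 1.74e-26), and *Mki67*, the proliferation marker, fell by 0.71. *Cdk1*, the kinase that starts mitosis, had 4038, 4095 and 3790.0 normalised counts with PBS and 3779.7, 3881 and 3812 with LPS (log2 fold change -0.056, SE 0.033, edgeR adjusted p = 0.125), and *Ccnb1*, its cyclin, did not pass either (0.028).

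**Figure D4:**
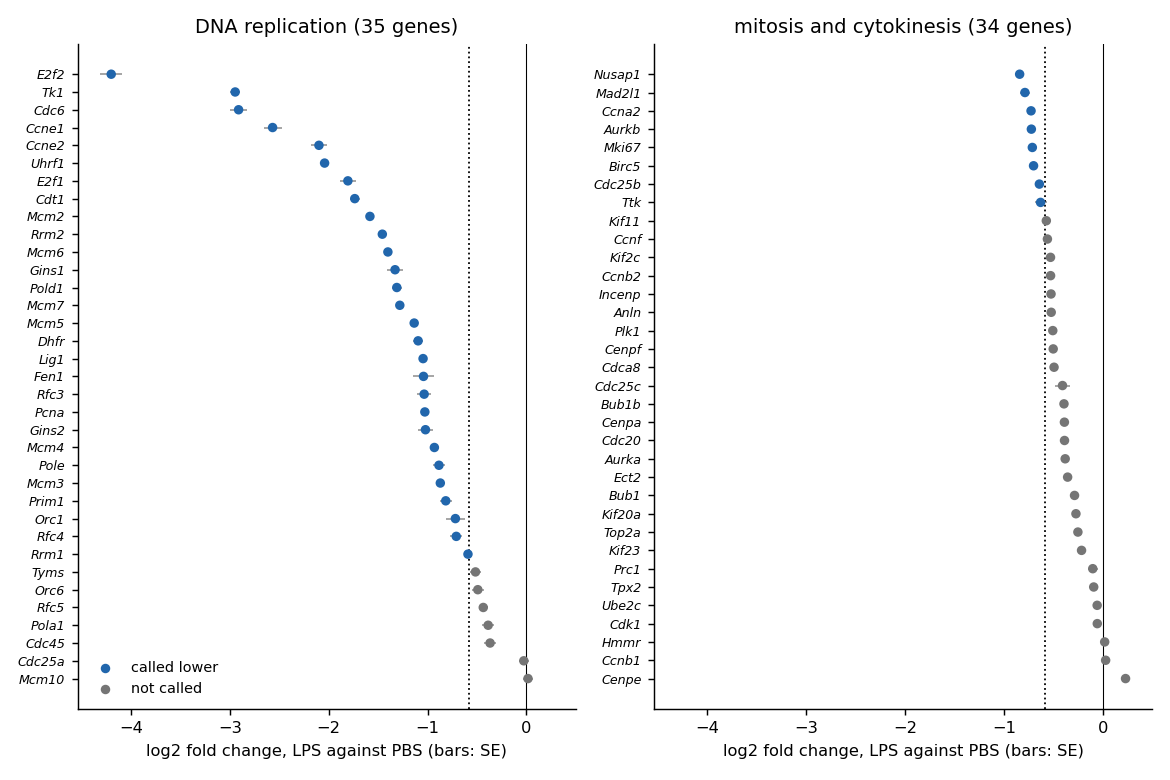
Log2 fold change of LPS against PBS with its approximate SE, obtained from the F statistic, for 35 genes of DNA replication (left) and 34 of mitosis (right). Genes called lower are in blue and the others in grey. The dotted line marks 1.5-fold lower: 28 of the replication genes but 8 of the mitosis genes lie beyond it.

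Regulators of division moved both ways, with 10 of 24 rising and 8 falling (median 0.10). *Cdkn1a*, which encodes the inhibitor p21, rose from 1208, 1281 and 1174 to 5971, 5958 and 6009 normalised counts (log2 fold change 2.29, SE 0.036, edgeR adjusted p = 1.81e-57), whereas *Cdkn1b* (p27) and *Cdkn2c* (p18) fell by 1.00 and 1.54. Of the D cyclins, which carry growth factor signals, *Ccnd1* fell by 1.31 from 114 to 38.8 FPKM and *Ccnd3* fell by 0.84 from 11.0 to 5.22 FPKM, whereas *Ccnd2* rose by 1.86 from 0.697 to 2.18 FPKM. *Gadd45b*, a stress sensor, rose by 4.03 from 6.39 to 88.6 FPKM. *Mdm2*, the ligase that degrades p53, rose by 1.17, while *Sesn1*, another p53 target, fell by 2.57 and *Trp53* itself did not pass (-0.16).

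Among genes of survival and death, 15 of 24 rose and 4 fell (median 1.10). *Bcl2l1*, which encodes BCL-XL, had 463, 499 and 424 normalised counts with PBS and 4701, 4889 and 4643 with LPS (log2 fold change 3.35, SE 0.045, edgeR adjusted p = 7.59e-62). *Bcl2a1d* and *Bcl2a1b*, near-identical copies of A1 whose reads may be shared, rose by 4.49 and 3.89. *Cflar*, whose product blocks caspase-8, rose by 2.57 and *Birc3* by 2.60. *Bcl2* itself fell by 1.42 at 1.96 FPKM with PBS. On the other side, the death receptor *Fas* rose by 7.27 from 0.197 to 27.5 FPKM. *Bmf*, a pro-apoptotic protein, fell by 2.26, but its relative *Bcl2l11* (BIM) rose by 2.59.

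Of 15 tested genes of the inflammasome, 6 rose and 4 fell (median 0.54). *Nlrp3*, the sensor that must be made before it can assemble, had 778, 727 and 743 normalised counts with PBS and 8785, 8521 and 8312 with LPS (log2 fold change 3.51, SE 0.037, edgeR adjusted p = 8.45e-68). *Casp4*, the receptor of LPS in the cytosol, rose by 3.83 from 1.53 to 18.4 FPKM, and *Il18*, a substrate of caspase-1, by 1.99. *Casp1* (0.58, but past the threshold at 0.60 to 0.62 without PBS replicate 2, LPS replicate 1 or LPS replicate 3) and the pore-former *Gsdmd* (0.28) did not pass, and *P2rx7*, the ATP receptor that triggers assembly, fell by 1.46. *Pycard*, which encodes the adaptor ASC, was too low to be tested. Of 15 other pattern recognition receptors, 10 rose and 2 fell (median 0.96). *Clec4e* (Mincle) rose from 9.65 to 198 FPKM, a log2 fold change of 4.60, *Nod2* by 4.52 and *Tlr2*, the receptor of lipoproteins, by 1.95. *Tlr13*, a sensor of bacterial ribosomal RNA, fell by 1.69 and *Trem2*, a lipid receptor, by 1.03, and *Tlr7* did not pass (-0.018).

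Uptake receptors also rose and fell. Of 17 tested, 9 rose and 5 fell (median 0.61). *Msr1*, the class A scavenger receptor, had 1523, 1479 and 1471 normalised counts with PBS and 5027, 4805 and 4938 with LPS (log2 fold change 1.72, SE 0.036, edgeR adjusted p = 2.17e-50), and *Axl*, a receptor for dying cells, rose by 4.44 from 0.760 to 14.0 FPKM. *Scarb1*, the HDL receptor, had 2226, 2275 and 2418 with PBS and 867, 845 and 821 with LPS (log2 fold change -1.45, SE 0.046, edgeR adjusted p = 2.94e-39). *Sirpa*, the inhibitory receptor of CD47, fell by 1.48 from 60.5 to 18.5 FPKM. Fc receptors differed: the activating *Fcgr4* and the inhibitory *Fcgr2b* rose by 3.85 and 2.55, *Fcgr3* fell by 1.81 and *Fcgr1* did not pass (0.52).

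Transcription factors of the lineage split evenly, 9 of 26 rising and 8 falling (median 0.06). *Spi1* (PU.1), which sets the macrophage fate, rose by 0.95 from 148 to 243 FPKM. The C/EBP family was divided between *Cebpd*, which had 249, 275 and 243 normalised counts with PBS and 2428, 2809 and 2704 with LPS (log2 fold change 3.37, SE 0.059, edgeR adjusted p = 6.93e-55), *Cebpa*, which had 490.4, 413 and 437 with PBS and 139, 142 and 99.3 with LPS (log2 fold change -1.82, SE 0.11, edgeR adjusted p = 4.28e-24), and *Cebpb*, which did not pass (0.29). *Tfeb*, the regulator of lysosomal genes, showed the largest fall of the list, from 570.0, 610.1 and 645 to 40.7, 43.3 and 48.6 normalised counts (log2 fold change -3.78, SE 0.12, edgeR adjusted p = 1.41e-39). *Klf4* fell by 2.77, while its relatives *Klf6* and *Klf7* rose by 1.46 and 2.06. *Id1* rose by 2.15 and *Id2*, of the same family, fell by 1.92. *Irf8*, a lineage factor, rose by 1.22 and *Irf5* did not pass (-0.18).

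Class I genes share sequence with each other, so that their reads may be split. Of 22 tested genes of antigen presentation and costimulation, 18 rose and none fell (median 1.39). *Cd40*, which receives help from T cells, had 26.2, 40.2 and 32.5 normalised counts with PBS and 3434, 3363 and 3339.8 with LPS (log2 fold change 6.65, SE 0.075, edgeR adjusted p = 2.80e-66). *Cd80*, a ligand of CD28, rose by 3.44 from 1.16 to 10.8 FPKM, and *Cd274* (PD-L1), an inhibitory ligand, by 4.55 from 0.297 to 6.11 FPKM. *Icam1*, the adhesion molecule, rose by 3.05. Class I genes rose from high levels by little, *H2-K1* by 0.77, *H2-D1* by 0.74 and *B2m* by 0.74, all of them under the threshold with library totals (0.53, 0.51 and 0.51), whereas the peptide pump *Tap1* rose by 2.99. The class II invariant chain *Cd74* did not pass (0.38). Proteases and matrix genes counted 12 rises and 3 falls among 20 tested (median 1.27). *Mmp9*, a gelatinase, had 0.971, 0.804 and 1.97 normalised counts with PBS and 547, 466 and 536 with LPS (log2 fold change 8.59, SE 0.23, edgeR adjusted p = 1.69e-43). *Plaur*, the urokinase receptor, rose by 3.99 from 19.5 to 266 FPKM, whereas urokinase itself (*Plau*) fell by 1.44 from 74.3 to 23.4 FPKM. The lysosomal cathepsins *Ctsb*, *Ctsd*, *Ctsl* and *Ctss* did not pass, with values from -0.26 to 0.23. Of 11 tested genes of iron handling, 4 rose (2 with library totals) and 3 fell (median 0.31). The exporter ferroportin (*Slc40a1*) fell by 1.44 at 0.210 FPKM with PBS, the importer *Slc11a2* rose by 1.96 from 6.09 to 20.1 FPKM, and the ferritin chains *Fth1* (0.21) and *Ftl1* (-0.10), which also have pseudogenes, did not pass.

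Whether the response was shared by the line labelled knockout was tested as an interaction over the 12 RAW264.7 libraries. Replicate 1 of the libraries labelled knockout with PBS stood apart from its group (chi-square per degree of freedom 88.9 and 90.0 against the others, which differed by 2.33 from each other), so results are given with and without it. The difference passed for 437 of 13639 genes (3.2%), 190 with a more positive and 247 with a more negative response than in wild type. Of the 4327 genes changed in wild type, 342 (7.90%) responded differently. Among these, 143 rises were stronger and 72 weaker in the libraries labelled knockout, and 109 falls were stronger and 18 weaker. Without that library, 879 genes passed and 613 (14.2%) of those changed in wild type, with 196 rises stronger and 153 weaker, and 218 falls stronger and 46 weaker. Interferon-stimulated genes were the list with most differences, 25 of 46, where 3.2% of all genes differed. In this list 21 responses were more positive and 4 more negative than in wild type. Without that library these were 24 and 5, where 6.32% of all genes differed. *Isg15* rose by 10.25 in the libraries labelled knockout (difference 2.47, SE 0.29, edgeR adjusted p = 0.000377, or 3.11 with adjusted p = 4.86e-07 without that library) and *Irf7* by 7.01 (difference 2.69, SE 0.13, edgeR adjusted p = 7.55e-07, or 2.65 with adjusted p = 1.88e-22 without that library). In contrast, *Irf1* rose less (difference -1.15, SE 0.13, edgeR adjusted p = 0.000280, or -1.07 with adjusted p = 8.23e-11 without that library) and so did *Ifit2* (difference -1.25, SE 0.15, edgeR adjusted p = 0.000505, or -1.39 with adjusted p = 4.88e-15 without that library). None of 34 mitosis genes and 2 of 35 replication genes differed, which is near the 3.2% of all genes.

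*Csf3* had 2 counts with PBS (0 to 1 per library) and 16680 with LPS (5065 to 5994 per library) in wild type, and 5 counts with PBS (0 to 3 per library) and 513 with LPS (163 to 182 per library) in the libraries labelled knockout (difference -5.86, SE 1.02, edgeR adjusted p = 0.00544, or -5.76 with adjusted p = 0.00216 without that library). *Ccr1*, a receptor of *Ccl3* and *Ccl5*, had 5 counts with PBS (1 to 2 per library) and 136 with LPS (42 to 51 per library) in wild type and 10 counts with PBS (2 to 5 per library) and 12 with LPS (1 to 8 per library) in those labelled knockout (difference -4.07, SE 0.92, edgeR adjusted p = 0.0259, or -4.37 with adjusted p = 0.00136 without that library). On the other side, *Timp1*, an inhibitor of matrix proteases, had 365 counts with PBS (107 to 143 per library) and 3006 with LPS (899 to 1057 per library) in wild type and 2 counts with PBS (0 to 1 per library) and 273 with LPS (69 to 114 per library) in the others (difference 4.09, SE 0.46, edgeR adjusted p = 0.000274, or 4.38 with adjusted p = 8.61e-07 without that library). *Cd300e*, an activating receptor of myeloid cells, had 61 counts with PBS (18 to 22 per library) and 458 with LPS (138 to 161 per library) in wild type and 0 counts with PBS and 285 with LPS (77 to 125 per library) in the others (difference 6.72, SE 0.70, edgeR adjusted p = 0.000419, or 6.68 with adjusted p = 5.38e-07 without that library). The difference of *Csf3* did not pass without replicate 2 of those PBS libraries (adjusted p = 0.0768), and that of *Ccr1* was lost when any of 9 of the 12 libraries was left out, with adjusted p between 0.0506 and 0.109. For *Timp1* and *Cd300e* the counts with LPS were higher in wild type, and the steeper response in the libraries labelled knockout rests on their near absence with PBS. Fitted differences of genes with a group at 3 counts or fewer depend on the prior count of the fit. For *Tnf* the difference did not pass with all libraries (0.064, SE 0.11, edgeR adjusted p = 0.882) or without that library (0.16, adjusted p = 0.0148, under 1.5-fold). For *Ccl2* it passed in neither fit (difference -0.026, edgeR adjusted p = 0.924, or -0.49 with adjusted p = 0.976 without that library). Its approximate SE came out at 0.069, below those of its responses in wild type (0.11) and in the libraries labelled knockout (0.57). That SE is therefore too small to be used, which is a limit of how SEs were obtained here. For *Nos2* it did not pass with all libraries (difference -3.06, SE 1.35, edgeR adjusted p = 0.310) but did without that library (-3.63, adjusted p = 0.0277). With 1 library left out at a time, the difference of *Nos2* ranged from -3.63 to 0.22, and it passed in that run only. The difference passed for *Acod1* in both fits (1.88, SE 0.31, edgeR adjusted p = 0.00333, or 1.68 with adjusted p = 6.09e-13 without that library). With PBS *Acod1* had 23, 23 and 44 raw counts in the libraries labelled knockout and 68, 121 and 120 in wild type, whereas with LPS it stood at 2114 to 2153 FPKM and 2188 to 2211 FPKM.

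The response was also set against that of wild-type BMDMs, primary macrophages given the same LPS. This comparison shares the wild-type RAW264.7 libraries with the one before. The BMDM libraries with LPS varied more among themselves (chi-square per degree of freedom 5.14 to 11.4). Here 5729 of 14819 genes (38.7%) differed, 2703 above and 3026 below, or 1190 above and 6138 below with library totals. Of the 4327 genes changed in RAW264.7 cells, 2228 (51.5%) differed. Of the rises that were tested in BMDMs on their own, 1218 of 1823 also rose there, 154 fell and 451 did not pass, and of the falls 1402 of 2076 fell, 151 rose and 523 did not pass. *Myc* showed a clear opposition, with 64 counts with PBS (17 to 29 per library) and 5418 with LPS (1690 to 1969 per library) in RAW264.7 cells and 3105 counts with PBS (1006 to 1057 per library) and 311 with LPS (98 to 112 per library) in BMDMs (difference -9.14, SE 0.13, edgeR adjusted p = 7.10e-30). *Bcl6b*, a repressor related to BCL6, had 22 counts with PBS (4 to 11 per library) and 1660 with LPS (520 to 596 per library) in RAW264.7 cells and 85 counts with PBS (24 to 31 per library) and 2 with LPS (0 to 1 per library) in BMDMs (difference -10.88, SE 0.50, edgeR adjusted p = 3.99e-18). *Cst7*, a cysteine protease inhibitor, fell in RAW264.7 cells (840 counts with PBS (239 to 339 per library) and 331 with LPS (96 to 119 per library)) and rose in BMDMs (192 counts with PBS (57 to 72 per library) and 4378 with LPS (1373 to 1565 per library), difference 6.42, SE 0.15, edgeR adjusted p = 1.70e-25). *Lif* had few reads in BMDMs, with 2 counts with PBS (0 to 1 per library) and 9 with LPS (2 to 4 per library) (difference -8.20, SE 1.80, edgeR adjusted p = 0.000239). *Mmp9*, which rose in RAW264.7 cells, fell in BMDMs, with 397 counts with PBS (121 to 153 per library) and 115 with LPS (33 to 44 per library) (difference -9.54, SE 0.33, edgeR adjusted p = 4.58e-21).

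By list, the differences did not run one way. Of all genes, 38.7% differed in either direction. Counts by list are of responses more positive or more negative in BMDMs than in RAW264.7 cells. Interferon-stimulated genes had a more negative response for 28 of 46 and a more positive one for 7. Mitosis genes had a more negative response for 29 of 34 and a more positive one for 1. *Cdc20*, an activator of mitotic exit, had a log2 fold change of -0.39 in RAW264.7 cells and -4.21 in BMDMs (difference -3.80, SE 0.24, edgeR adjusted p = 1.56e-14), and *Plk1*, a mitotic kinase, -0.51 and -2.70 (difference -2.17, SE 0.13, edgeR adjusted p = 4.02e-15). NF-kappaB genes had a more positive response in BMDMs for 12 of 18 and a more negative one for 1, or 6 and 3 with library totals. Sterol synthesis genes had a more positive response for 16 of 23 and a more negative one for none, or 8 and 2 with library totals. With library totals 49.5% of all genes differed. Of the sterol genes, 3 had risen and 6 fallen in RAW264.7 cells, so a more positive response need not be a stronger one. *Rela*, which had not passed in RAW264.7 cells, rose by 1.77 in BMDMs (difference 1.81, SE 0.075, edgeR adjusted p = 3.40e-19). Of the enzymes, *Acod1* rose by 11.34 (difference 1.5, SE 0.14, edgeR adjusted p = 5.27e-11) and *Ptgs2* by 10.32 (difference 2.49, SE 0.14, edgeR adjusted p = 9.81e-16), while for *Nos2* (difference 2.39, SE 1.27, edgeR adjusted p = 0.152) and *Il6* (difference 2.29, SE 1.19, edgeR adjusted p = 0.103) the difference did not pass. *Tnf* rose more in BMDMs (difference 0.96, SE 0.062, edgeR adjusted p = 2.00e-14), which fell under 1.5-fold with library totals (0.35).

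**Figure D5:**
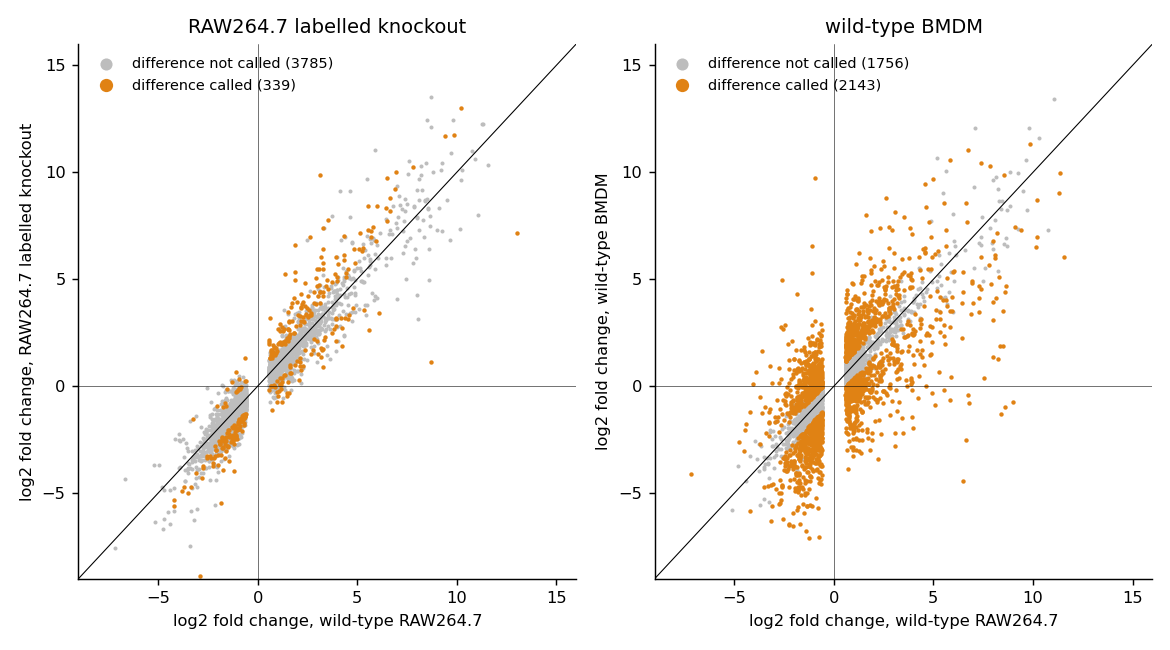
Log2 fold change of LPS against PBS in wild-type RAW264.7 cells (horizontal axes) against that in the RAW264.7 libraries labelled knockout (left) and in wild-type BMDMs (right), for the genes changed in wild-type RAW264.7 that were tested in both, with the diagonal as equality. Orange points, 339 on the left and 2143 on the right, passed the test of the difference.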

How the data were processed

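Poly(A) RNA of 24 libraries was sequenced, 6 of them of wild-type RAW264.7 cells. The authors deposited read counts per gene, not normalised, beside FPKM values. These are the counts per kilobase of the exonic length of the gene, scaled to the total of the library. The labels name mm10 as the genome build, and which aligner and counter were used was not given in the sources used here. Positions in the tables did not match GRCm38 and were not printed. The table held 56691 genes, of which 2639 had no symbol. Libraries were grouped by title, and column names were matched to titles.

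Counts were filtered by edgeR's filterByExpr with its defaults, scaled by median ratio (RLE) and fitted with glmQLFit and glmQLFTest (edgeR 4.0.16, R 4.3.3), and p-values were adjusted by the Benjamini-Hochberg method over all genes tested. The study names limma for its own tests, and edgeR was used here because the unit is counts. Responses were compared by interaction contrasts over 12 libraries each. The scripts were tested on simulated data. Fold changes against a group without reads were set against a floor of 3 counts over the group, ratios with 1 to 3 counts carry exact 95% intervals, and floors and intervals cover counting error only. Fitted values of such genes depend on the prior count. Low totals limit the precision for genes with few reads. In lists with untested members, the filter favours rises, since genes with few PBS reads pass it only where they are higher with LPS.

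Named were the genes that the study measured or followed as proteins, the 10 largest rises and falls among changed genes with at least 1 FPKM and no overlap of the libraries, members of the gene and marker lists, the 5 largest differences in each direction of both comparisons, and the 10 genes with the highest level among those that rose. The members and lists were chosen with earlier results of these data known. Promoters came from a RefSeq table that matched by symbol. Alternatives were TMM factors, library totals, DESeq2 (1.42.0), no filter or at least 10 counts in 3 libraries, the replicate number as a block, all 12 RAW264.7 libraries, limma (3.58.1) on log2 FPKM with a pseudocount of 0.1 or 1, and each library left out in turn. Counts per list without the library that stood apart, and with library totals in BMDMs, were added after the data were seen.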

Additional observations from a re-analysis of the deposited data

Results flagged for a closer look

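The LPS response differed between wild-type RAW264.7 cells and the libraries labelled knockout for 437 genes by edgeR's interaction test. In the libraries labelled knockout *Olfml3* counts were higher than in wild type. The differences below are on the log2 scale, labelled knockout minus wild type, with the summed counts of the 3 libraries with PBS and with LPS. More negative responses were found for the predicted genes *Gm15433* (-7.55, wild type 0 and 143, labelled knockout 57 and 85) and *Gm12250* (-4.41, 4 and 105 against 9 and 8). The pseudogene *Ifi203-ps* (-2.97, 4 and 179 against 17 and 71) may share reads with its relatives. *Csf3* (-5.86) and *Ccr1* (-4.07) were described above. More positive responses were those of *Cd300e* (6.72) and *Timp1* (4.09), described above, of *Lpar1*, a receptor of lysophosphatidic acid (4.72, 128 and 392 against 1 and 93), of *Pla1a*, a phospholipase (4.24, 15 and 146 against 0 and 65), and of the predicted gene *Gm13470* (3.84, 42 and 92 against 1 and 36). Several of these calls were fragile when 1 of the 12 libraries was left out. That of *Pla1a* was lost in 11 of 12 such runs (adjusted p 0.0516 to 0.0915), that of *Gm12250* in 10 (0.0533 to 0.103) and that of *Ifi203-ps* in 10 (0.0608 to 0.164), and that of *Gm13470* without PBS replicate 2 or 3 of the libraries labelled knockout (3.40 and 3.46). Without PBS replicate 1 of those libraries, which stood apart, *Gm12250* stood at -3.53 and did not pass in edgeR (adjusted p = 0.0929), while the differences were -7.86 for *Gm15433*, -3.31 for *Ifi203-ps*, 4.25 for *Lpar1*, 4.20 for *Pla1a* and 5.48 for *Gm13470*, all of which passed.

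Between wild-type BMDMs and wild-type RAW264.7 cells, the response differed for 5729 genes by the same kind of test. Given as BMDM minus RAW264.7, with summed counts of RAW264.7 first, the most negative differences were those of *Bcl6b* (-10.88), *Mmp9* (-9.54, 4 and 1416 against 397 and 115), *Gm28513* (-9.18, 0 and 38 against 2 and 0), *Myc* (-9.14) and *Lif* (-8.20). The most positive were those of *Trp53i11*, a p53-induced gene (7.69, 1025 and 399 against 8 and 459), *Sema4g*, a semaphorin (7.66, 660 and 75 against 0 and 7), *Dusp14*, a phosphatase (7.59, 208 and 28 against 9 and 167), *Lck* (6.45, 123 and 312 against 15 and 2309) and *Cst7* (6.42). Values of genes with a group at 3 counts or fewer depend on the prior count of the fit.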

How the results depend on the processing

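The 4327 genes changed in wild-type RAW264.7 cells became 8831 with the adjusted p alone. Over the other alternatives the count ranged from 3113 (limma on log2 FPKM with a pseudocount of 1) to 5082 (limma on FPKM as deposited), with 4143 in DESeq2 and 4324 to 4434 when a library was left out. The share of rises moved with the scaling, from 47.2% to 29.7% with library totals and 32.3% with FPKM as deposited. The 437 differing responses of the libraries labelled knockout ranged from 313 to 879 when a library was left out, the latter without PBS replicate 1 of those libraries and the former without LPS replicate 1, with 557 in DESeq2. The 5729 differing responses of BMDMs ranged from 5568 to 5734 in the same runs, and became 7328 with library totals, of which 16.2% were above. Of 294 values of single genes in the text, none changed direction while passing, and 51 crossed a threshold under at least 1 alternative, mostly the adjusted p alone or library totals. Same-numbered wild-type libraries did not deviate together (correlations -0.0048, 0.0076 and -0.0042 across genes), but with 3 libraries per group such values cannot exclude a pairing. Same-numbered PBS libraries of wild type and of the line labelled knockout correlated at 0.12, 0.049 and 0.099. The other same-numbered pairs of RAW264.7 libraries lay between -0.038 and 0.024. With the replicate number as a block, 4295, 380 and 5650 genes passed in the 3 comparisons, and among the named differences those of *Ccr1*, *Gm12250*, *Ifi203-ps* and *Pla1a* did not (adjusted p = 0.0576, 0.0751, 0.0797 and 0.0748). Many of the largest changes are of genes with few reads in 1 group, so that depth limits how well their folds are known. One line, 1 time and 1 dose were measured.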
